A study of Homo sapiens with 2 samples.

Results

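The genes that drive the cell cycle and copy the DNA were looked up in a KLF7 ChIP-seq experiment. The set held 57 genes in 9 groups by role, and a gene counted as having a peak when its exact symbol stood in a gene entry of the authors' annotated peak list. By this rule 4 of the 57 genes had an entry, each in 1 peak. They were E2F1, CDKN2A, MCM3 and MCM7. CAL27, an established human tongue cancer cell line, had been infected with lentivirus so that it expressed KLF7 carrying a myc tag. KLF7 is a zinc finger transcription factor of the Krüppel-like family, whose members bind GC-rich DNA. Chromatin was cross-linked with 1% formaldehyde and sonicated, and 1 library was made after precipitation with the anti-MYC antibody D3N8F and 1 from unprecipitated input of the same cells. Both libraries carried the same construct. A library without the tagged protein was not used here, and there were no replicates. No difference could therefore be set against a spread between samples, and no test was run.

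The labels do not say whether the antibody also binds endogenous MYC, so fragments brought down through the tagged KLF7 and through MYC cannot be told apart. The peak list held 1900 peaks on hg38 with entries for 1706 gene symbols, and 576 of the peaks carried a promoter entry. Read totals are not among the values used here, so depth is known only through the pileup, which counts ChIP fragments at the summit of a peak. The median pileup was 13 fragments, and the lowest of any peak was 7. Fold enrichment, as the authors give it, divides the pileup plus 1 by the background rate there plus 1, and its median was 5.06. The -log10 q grows with the evidence for a peak after adjustment for many positions.

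Cells enter the cycle when cyclin D with CDK4 or CDK6 and then cyclin E with CDK2 phosphorylate the RB proteins, which releases E2F factors to switch on genes for DNA synthesis. CDK inhibitors hold these kinases back, and CDC25 phosphatases remove inhibitory phosphates from them. Before S phase the origin recognition complex, CDC6 and CDT1 load the MCM2 to MCM7 helicase onto origins, a step called licensing, which geminin (GMNN) blocks later. GINS and MCM10 then help to start the helicase, PCNA and its loader RFC hold the polymerases on the template, and ubiquitin ligases remove cyclins and inhibitors on schedule. Many promoters of these genes carry E2F elements, and those of late genes often carry CCAAT boxes with a CHR element. MYC binds the E-box CACGTG.

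The DNA under the peaks is shown first because the 4 peaks differ in the elements they hold. Each stretch runs 5′ to 3′ on the strand of the gene, which was the minus strand in every case, and was read from GRCh38. For E2F1 the stretch is chr20:33686501-33686701, all bases within 100 bp of the summit, upstream of the gene, and for CDKN2A it is chr9:21974867-21974996, which covers the summit and ends next to the nearest downstream transcript start. Capitals mark the GC box core GGGCGG, the element of KLF and SP factors, on either strand. For MCM7 the stretch is chr7:100100576-100100604, 55 to 83 bp downstream of the summit, with the same core in capitals. For MCM3 it is chr6:52284728-52284757, and the capitals mark an E2F element that lies across the canonical transcript start.
E2F1: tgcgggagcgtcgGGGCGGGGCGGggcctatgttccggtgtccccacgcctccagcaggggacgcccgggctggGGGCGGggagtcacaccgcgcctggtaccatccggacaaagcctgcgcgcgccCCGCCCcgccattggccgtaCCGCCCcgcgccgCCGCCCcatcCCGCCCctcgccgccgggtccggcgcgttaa
CDKN2A: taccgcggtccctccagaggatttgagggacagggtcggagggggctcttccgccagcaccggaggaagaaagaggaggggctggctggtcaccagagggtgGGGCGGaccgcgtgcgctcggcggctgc
MCM7: actggctcCCGCCCtGGGCGGaggaatcc
MCM3: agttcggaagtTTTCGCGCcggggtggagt

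The 4 of 57 genes with an entry made 7.02% (95% Wilson interval 2.76 to 16.7%, counting error only). Of 20007 protein-coding genes in GENCODE v44, 1236 had an entry by the same rule, which is 6.18%. The members' share lay near this background and is no result about them as a set. The 57 genes and their groups were also chosen with earlier results of these data known. For promoter entries the count was 1 of 57, E2F1, or 1.75% (0.310 to 9.29%), beside 412 protein-coding genes or 2.06%. The other 3 members had their entries in an exon (MCM3) or an intron (MCM7 and CDKN2A). Across protein-coding genes, 2.74% had an intron entry and 1.58% an exon or UTR entry.

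The entries fell in 3 of the 9 role groups. Among the E2F and RB genes 1 of 10 had a peak, E2F1, and E2F2, E2F3, E2F4, E2F5, E2F6, TFDP1, RB1, RBL1 and RBL2 had none. Among the 12 licensing genes MCM3 and MCM7 had peaks (16.7%, Wilson 4.70 to 44.8%), and CDC6, CDT1, GMNN, MCM2, MCM4, MCM5, MCM6, ORC1, ORC2 and ORC6 had none. Of the 5 CDK inhibitors only CDKN2A was listed, without CDKN1A, CDKN1B, CDKN2B and CDKN2C. None of the 8 cyclins had an entry, namely CCND1, CCND2, CCND3, CCNE1, CCNE2, CCNA2, CCNB1 and CCNB2, and a count of 0 of 8 still allows a share of up to 32.4% by the Wilson interval. The kinases CDK1, CDK2, CDK4, CDK6, CDK7 and CDK9 had no entry (0 of 6, up to 39.0%). The same held for the phosphatases CDC25A, CDC25B and CDC25C, for the origin firing genes MCM10, GINS1 and GINS2 and for the ubiquitin ligase genes CDC20, SKP2 and MDM2, each 0 of 3 with an upper limit of 56.1%. The fork and polymerase genes PCNA, RFC3, RFC4, POLA1, POLD1, POLD2 and POLE also had none (0 of 7, up to 35.4%). All groups are small, and their intervals all overlap. A gene without an entry had no peak at the authors' q threshold of 0.05. Binding too weak for a pileup of 7 fragments was not detectable at this depth. That lowest pileup was reached where the background rate was lowest, and a higher local background called for more fragments.

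E2F1 encodes the E2F factor best known for switching on S phase genes. Its peak, chr20:33686376-33686676, was 301 bp long and carried a promoter entry for E2F1 (ENSG00000101412) and for no other gene. The pileup in the single ChIP library was 14 fragments (exact 95% Poisson interval 7.65 to 23.5), over a local background rate of 1.78. Fold enrichment was 5.39 and the -log10 q was 4.98. By fold enrichment the peak ranked 756 of 1900, and 256 of the 576 promoter peaks, so it stood close to the middle of both. Its summit lay 216 bp upstream of the start of E2F1-201, the 1 annotated transcript, and that start was inside the peak.

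MCM3 and MCM7 encode subunits of the same replicative helicase. The MCM3 (ENSG00000112118) peak, chr6:52284512-52284819, spanned 308 bp. The pileup was again 14 fragments (7.65 to 23.5), here over a background rate of 1.26, which put fold enrichment at 6.65 with a -log10 q of 6.87. The summit was 181 bp downstream of the outermost gene start and 42 bp downstream of the start of the canonical transcript MCM3-205, which was the 1 of 6 transcript starts inside the peak. The summit was in an untranslated part of an exon for 2 of the 6 transcripts, the canonical one included, in a coding exon for 2 others and upstream of the other two.

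The MCM7 (ENSG00000166508) peak, chr7:100100538-100100810, spanned 273 bp and reached 15 fragments (8.40 to 24.7) over a background rate of 1.3. Its fold enrichment was 6.96, and its -log10 q was 7.70. These were the highest fold enrichment and the highest -log10 q among the 4, and 87.2% of all peaks had a lower fold enrichment. The peak also carried a promoter entry for AP4M1, which the authors' table gave as the nearest gene. AP4M1 encodes a subunit of an adaptor complex for vesicle transport and is the neighbour of MCM7 on the opposite strand, so the peak carried entries of both genes and cannot be assigned to either alone. The summit was 1281 bp downstream of the outermost MCM7 start and 738 bp downstream of the canonical start of MCM7-201. Starts of 3 of the 13 MCM7 transcripts lay inside the peak, the nearest of them 81 bp from the summit.

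CDKN2A encodes an inhibitor of CDK4 and CDK6 and, from a separate upstream first exon, ARF, which acts through MDM2 on p53. The CDKN2A (ENSG00000147889) peak, chr9:21974724-21975194, was the longest of the 4 at 471 bp. It reached 16 fragments (9.15 to 26.0) over a background rate of 2.21. Fold enrichment was 5.29 with a -log10 q of 5.45, and 56.7% of all peaks had a lower fold enrichment. The same peak had an intron entry for AL359922.1, and the nearest gene in the table was CDKN2A-AS1. The summit was 20405 bp downstream of the outermost gene start, inside an intron of 4 of the 14 CDKN2A transcripts. It was also 39 bp upstream of the start of the canonical transcript CDKN2A-201 and upstream of 9 transcripts in all, and 4 transcript starts lay inside the peak. The intron entry therefore described a peak at a second start of the gene and not at the first. CDKN2B, the neighbouring CDK inhibitor gene, had this same summit as its nearest, 34409 bp from its start.

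Pileups of the 4 peaks ran from 14 to 16 fragments and their Poisson intervals all overlapped, so the peaks could not be ordered by pileup. A pileup in this range was common, held by 322 peaks or 16.9% of the list. Fold enrichment ran from 5.29 for CDKN2A and 5.39 for E2F1 to 6.65 for MCM3 and 6.96 for MCM7, with a median of 6.02 beside 5.20 over promoter peaks. All 4 lay outside the dense clusters of peaks, taken as at least 5 peaks with neighbours within 100 kb.

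**Figure D1:**
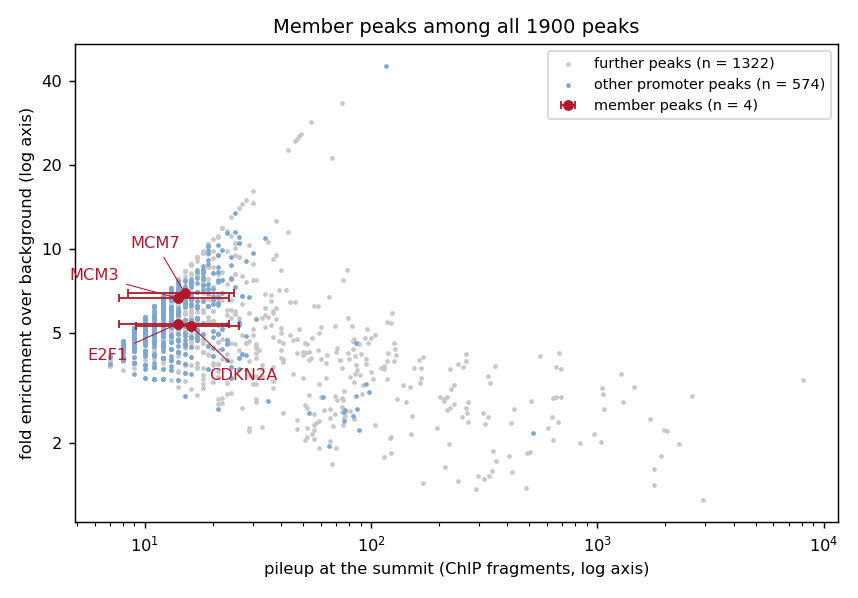
Pileup at the summit in ChIP fragments (horizontal, log axis) against fold enrichment over background (vertical, log axis) for all 1900 peaks. Red points are the 4 member peaks with exact 95% Poisson intervals of the pileup, blue points the other 574 promoter peaks and grey points the further 1322. The members sit at pileups of 14 to 16 and folds of 5.29 to 6.96, inside the bulk of the list.

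Each of the 4 peaks held an annotated transcript start of its gene. Over all pairs of a protein-coding gene and a peak with its entry, 639 of 1314 did (48.6%, Wilson 45.9 to 51.3%). The share was 78.9% for exon or UTR entries, 49.0% for promoter entries and 31.6% for entries in introns only. The feature in the annotation thus did not tell for these members how near the summit was to a start. Summits were within 2000 bp of the outermost gene start for 3 of the 57 members (5.26%), beside 4.70% of protein-coding genes, and CDKN2A was the member with an entry that this measure left out.

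Among the 53 members without an entry, no summit lay within 2000 bp of the gene start. This was partly fixed in advance, because a peak in a gene or its promoter class gives that gene an entry. The median distance to the nearest summit was 250156 bp, beside 470034 bp over all protein-coding genes, those with peaks included. Of the 53, 16 had a summit within 100 kb (30.2%), beside 21.9% of all protein-coding genes. Over all 57 members that share was 35.1% (Wilson 24.0 to 48.1%), and the difference from 21.9% was not tested. The nearest were E2F4, an E2F factor that acts mainly as a repressor with RBL1 and RBL2, at 6943 bp, and the helicase gene MCM2 at 7189 bp. The summit by E2F4 was in the promoter peak of ELMO3 (pileup 13, fold enrichment 6.64), and the summit by MCM2 was in an intron of TPRA1 (pileup 11, fold enrichment 4.16). CDK9, the kinase of transcription elongation, followed at 17402 bp from a summit in FPGS, and CDC25B at 21540 bp from the promoter peak of LINC01730 (pileup 22, fold enrichment 9.93). CCNB1 and CDK7 on chromosome 5 shared the same nearest summit, which lay between them in CENPH, at 22448 and 45212 bp. At the other end, the nearest summit was 7913667 bp from CDK1, 6464323 bp from CCNA2 and 4482030 bp from MCM10. Distances of this size carry no assignment to a gene.

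**Figure D2:**
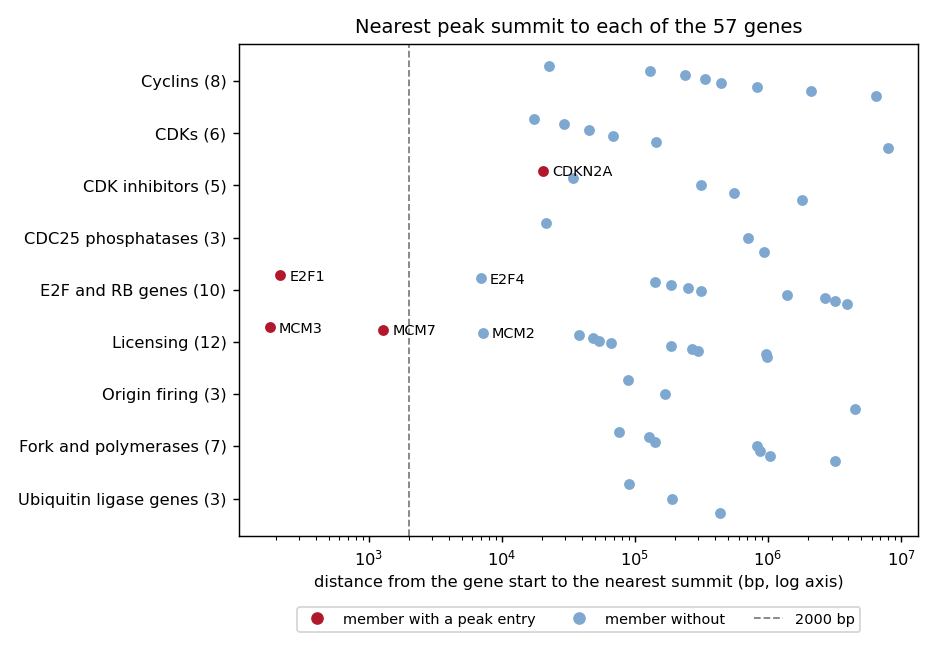
Distance in bp from the outermost GENCODE v44 start of each of the 57 genes to the nearest peak summit (log axis), by role group with the number of genes in brackets. Red points are the 4 genes with an entry and blue points the 53 without, and the dashed line marks 2000 bp. E2F1, MCM3 and MCM7 lie left of the line, CDKN2A at 20405 bp, and no blue point lies left of it. The choice of blue points as genes without an entry partly fixes their absence there.

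Short elements were searched on both strands within 100 bp of each summit in the 4 member peaks, in 571 promoter peaks and in all 1854 peaks on assembled chromosomes. The GC box core GGGCGG was in 3 of the 4 member peaks, beside 68.1% of promoter peaks and 43.9% of all peaks. E2F1 held 7 copies, the nearest from 26 to 21 bp upstream of the summit, CDKN2A held 2, the first starting 2 bp downstream of the summit, and MCM7 held 2, from 63 bp downstream. The longer GGGGCGGGG, in which the core lies, was found only at E2F1, in 4 copies, some overlapping, beside 22.2% of promoter peaks and 12.0% of all peaks. GC content of the 4 stretches of 201 bases was 78.6% at E2F1, 72.6% at CDKN2A, 70.6% at MCM7 and 61.2% at MCM3, the peak without a GC box.

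The E-box CACGTG was in 0 of the 4 member peaks (Wilson upper limit 49.0%), beside 153 of 571 promoter peaks (26.8%) and 360 of all 1854 (19.4%). The nearest to a member summit was at E2F1, 155 to 150 bp upstream, outside the peak. An E2F element was taken as TTTCCCGC, TTTCGCGC, TTTGCCGC or TTTGGCGC. Within 100 bp of the summit it was found at 1 member, MCM3, from 46 to 39 bp upstream, beside 3.50% of promoter peaks and 2.05% of all peaks. E2F1 had one 183 bp downstream of its summit, 33 bp before the transcript start and still inside its peak. Another E2F element in the E2F1 peak began 20 bp before that start, on the other strand. Over whole peaks, 2 of the 4 therefore held at least 1 E2F element, beside 5.60% of promoter peaks. CCAAT was within 100 bp at E2F1 and MCM7, beside 15.4% of promoter peaks and 14.7% of all peaks. The CHR element TTTGAA was at none of the 4, beside 3.85% of promoter peaks and 12.9% of all peaks. With 4 peaks these counts describe single sites. A match is a stretch of letters and not a measured binding site, and absence of these letters says nothing of the factor.

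**Figure D3:**
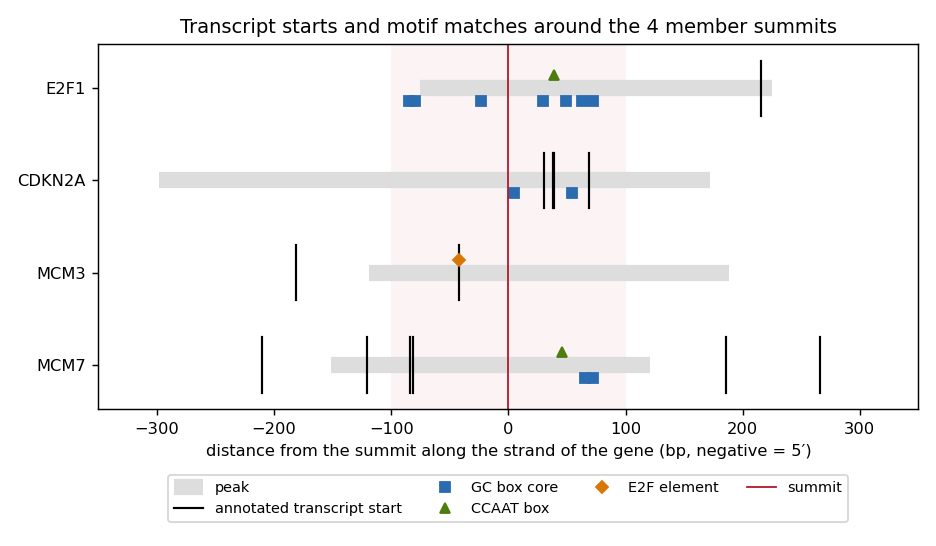
The 4 member peaks aligned at their summits, with distance along the strand of the gene in bp on the horizontal axis and negative values on the 5′ side. Grey bars are the peaks, black ticks annotated transcript starts, squares GC box cores, triangles CCAAT boxes and the diamond the E2F element, with elements marked only in the shaded 100 bp on either side. Every bar holds at least 1 transcript start, GC box cores are drawn for E2F1 (7), CDKN2A (2) and MCM7 (2), and the E2F element is at MCM3.

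To see which members carry these elements at their promoters without a peak, RefSeq windows of GRCh38.p14 from 250 bases before to 50 after a start were read. Windows were matched for 50 of the 57 members by symbol, 74 windows in all, and CCND1, CCND2, CCNE2, CDK2, E2F5, MCM4 and MCM5 had no match. An E2F element was in a window of 21 of the 50 members (42.0%, Wilson 29.4 to 55.8%), beside 840 of 15345 protein-coding genes (5.47%). These were CDC25A, CDC6, CDK1, CDT1, E2F1, E2F2, E2F3, GINS1, GINS2, GMNN, MCM2, MCM3, MCM6, MCM7, MDM2, PCNA, POLA1, POLE, RBL1, RFC3 and TFDP1. Among these 21, E2F1, MCM3 and MCM7 had a summit within 2000 bp (14.3%), beside 8.10% of all genes with the element. With 3 genes this difference was not tested. The other 18 carried the element and had no summit in that range. GC box cores were in windows of 43 of the 50 members (86.0%, beside 65.1%), and 3 of those 43 had a summit within 2000 bp (6.98%, beside 7.11%). For CCAAT the counts were 30 of 50 members (60.0%, beside 42.5%), and 3 of those 30 had a summit within 2000 bp (10.0%, beside 5.14%). For the CHR element they were 6 of 50 (12.0%, beside 15.9%), with 0 such summits (beside 2.95%). The members were picked for their roles with earlier results of these data known, and the windows were compared with no test.

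**Figure D4:**
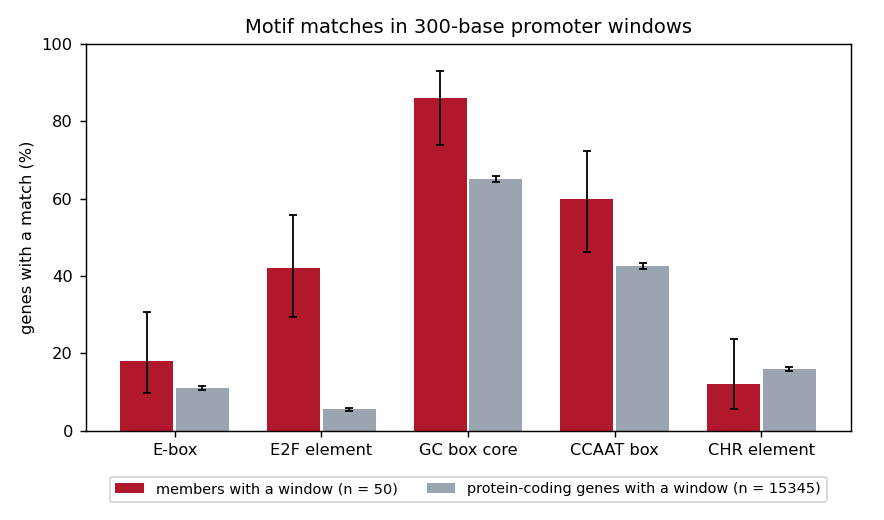
Percent of genes with at least 1 match in a RefSeq promoter window of 300 bases, for 50 member genes (red) and 15345 protein-coding genes (grey), with 95% Wilson intervals. The E2F element has the widest gap, 42.0% against 5.47%, and for the E-box the interval of the members, 9.77 to 30.8%, reaches the 10.9% of all genes.

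The E-box was in a promoter window of 9 members (18.0%, Wilson 9.77 to 30.8%), beside 10.9% of protein-coding genes. They were the cyclin gene CCNB1, the kinase genes CDK4, CDK6 and CDK7, the inhibitor gene CDKN2C, E2F3, and the licensing genes GMNN, MCM2 and MCM7. Of these 9 only MCM7 had a summit within 2000 bp (11.1%), beside 10.1% of all genes with the element. At MCM7 the E-box and the summit were 760 bp apart, so the peak was not over it. The MCM2 E-box was 7182 bp from the nearest summit, the CDK4 E-box shown here 25855 bp and the E2F3 E-box 2697476 bp. Since CACGTG at these starts is the element that MYC binds, 30 bases around it, with the E-box in capitals, are shown on the strand of the gene for 4 members: MCM7 (chr7:100101405-100101434), MCM2 (chr3:127598388-127598417), CDK4 (chr12:57752394-57752423) and E2F3 (chr6:20403522-20403551).
MCM7: agtggcgccggtCACGTGgggggcgacgtt
MCM2: gctttggtgggtCACGTGaaccacttttcg
CDK4: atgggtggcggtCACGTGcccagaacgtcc
E2F3: tgacgtttcgcaCACGTGcgcgcaggacgc

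A further list of 103 cell cycle and replication genes that are not among the 57 was read in the same way. Of these 17 had an entry (16.5%, Wilson 10.6 to 24.9%) and 8 a promoter entry (7.77%, 3.99 to 14.6%), beside the 6.18% and 2.06% of protein-coding genes. The list was made with earlier results of these data known, so its share was not tested against that background. The 17 genes had 18 peaks, with pileups of 9 to 25 and fold enrichments of 3.81 to 7.57, a range that covers all 4 members.

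Those acting on licensing or E2F targets were DBF4, the activator of the CDC7 kinase that fires licensed origins (fold enrichment 7.57), MCM8, a helicase related to the MCM proteins, and MCMBP, which binds them (5.48 each), and the repressor E2F7 (6.65). At the fork they were POLE3 and POLE4, small subunits of polymerase epsilon (6.42 and 4.51), RPA3, a subunit of the single-strand binding complex (6.48), and RRM2, which makes deoxynucleotides (6.75). The large polymerase gene POLE and the clamp gene PCNA, members of the set, had none. Among inhibitors and cyclins, CDKN2D (5.21) and CCNT2 (5.65), the cyclin partner of CDK9, had a peak. The remaining entries were for BUB3 of the spindle checkpoint (4.81) and for ubiquitin ligase genes. Among the ligase genes were RBX1 (6.56) and CUL1 (6.69 and 5.58 in 2 intron peaks). The others, FZR1 (5.84), CDC16 (4.75), ANAPC4 (5.71) and ANAPC7 (3.81), belong to or act with the anaphase-promoting complex. Several of these peaks carried entries of other genes too and cannot be assigned to 1 gene. The DBF4, POLE3 and first CUL1 peaks had promoter entries of SLC25A40, C9orf43 and AC005229.4, the MCM8 peak an exon entry of TRMT6, its nearest gene in the table, and the CCNT2 peak a promoter entry of CCNT2-AS1. The RPA3 peak had intron entries of UMAD1 and AC007161.3, and the ANAPC7 peak one of AC144548.2. The other CUL1 summit was 74953 bp downstream of the gene start. The FZR1 summit was 19985 bp downstream of the gene start, though 196 bp from the start of the transcript FZR1-208. The authors gave SNORD38 as the nearest gene of the FZR1 peak. The MCMBP summit was 19630 bp downstream of the outermost gene start but 83 bp upstream of the canonical transcript start. CUL1 and RBX1 are the scaffold and the RING subunit of the ligase that SKP2, a member without a peak, directs to its substrates.

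Of the 18 peaks of these further genes, 14 held a GC box core within 100 bp of the summit (77.8%, beside 68.1% of promoter peaks and 43.9% of all peaks). An E-box was in 4 (22.2%, Wilson 9.0 to 45.2%, beside 26.8% and 19.4%), a share near both backgrounds whose interval overlaps that of the members. The 4 were MCM8 (chr20:5950512-5950541), POLE3 (chr9:113410389-113410418), RBX1 (chr22:40951249-40951278) and ANAPC7 (chr12:110403595-110403624), printed on the strand of the gene with the E-box in capitals. In MCM8, POLE3 and RBX1 a GC box core lies within the printed bases as well.
MCM8: cggcaccgccccCACGTGttgcacgccgct
POLE3: gacactgtaggcCACGTGgggcggaacgga
RBX1: aagaggcgtggtCACGTGctccgcccccac
ANAPC7: aatgtgatagacCACGTGcgggacatggcg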

How the data were processed

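CAL27 cells with lentiviral myc-KLF7 gave 1 anti-MYC ChIP library and 1 input library, grouped from the labels. According to the methods, the authors trimmed the reads with Trimmomatic, mapped them with BWA, removed duplicates with Samtools and called peaks with MACS2 at a q threshold of 0.05. The processing notes of the labels name hg38 and ChIPseeker. The annotation release behind the gene entries and the width of the promoter class are not given in the sources used here. Among the deposited values, pileup is a signal counted in fragments over each summit. The authors' fold enrichment is a ratio over local background, and the deposited -log10 q is the adjusted Poisson value of MACS2. The deposited -log10 p was not used. Peak totals depend on sequencing depth, and weak sites fall below the threshold first.

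The 57 members, the role groups and the further list were chosen with earlier results of these data known. Every member and each further gene with an entry was named, with the genes sharing a member's peak. Symbols were matched exactly to gene entries, and all 57 were found in GENCODE v44. The background rate was computed as the pileup plus 1, divided by the fold enrichment, minus 1. Distances ran from gene or transcript start to summit. Intervals are 95% Wilson for shares and exact Poisson for pileups and cover counting error only. The motif search and the Poisson intervals were tested on simulated data. Alternatives covered stricter q, fold and pileup, clusters left out, other ways to name the gene and other motif windows. Computations ran in Python 3.11.15 (scipy 1.17.1, pysam 0.24.0, pandas 2.3.3, numpy 2.4.6, matplotlib 3.10.9).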

Additional observations from a re-analysis of the deposited data

How the results depend on the processing

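The same 4 genes had a peak at q under 0.01 and under 0.001, at a fold enrichment of at least 5, at a pileup of at least 10 and without the dense clusters. Taking the nearest gene of the table gave 2 members, E2F1 and MCM3, and a summit within 2000 bp of the gene start gave 3, without CDKN2A. A summit within 2000 bp of any transcript start, an alternative chosen after seeing the data, gave all 4. The background share was 2.26% over all genes of the annotation and 4.82% at q under 0.001. It was not computed at q under 0.01 or for the fold, pileup, cluster and nearest-gene settings. The member counts there have no background beside them, and the unchanged count of 4 is no result about the members. Within 200 bp of the summit 1 member had an E-box, E2F1, where it lay outside the peak, and 33.8% of promoter peaks had one. An E2F element was within 200 bp at 2 members and in 2 whole peaks, E2F1 and MCM3, beside 7.53% and 5.60% of promoter peaks. Against the E2F1 start that the authors' table uses, the summit was at -197 bp. Of 99 alternatives over 20 results, 80 kept the value or stayed close to it and 19 moved it. Many of the 80 could not move, because a stricter setting leaves a role group without entries at 0. The change from 4 to 3 members was counted as close. The tally is therefore no measure of how robust the results are. No paired analysis was possible because there was 1 ChIP and 1 input library and no test. A peak list from single libraries at a median pileup of 13 fragments limits what weak binding can be seen, and the spread between cultures was not measured.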
